A study of Mus musculus with 9 samples.

Results

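The cytosolic ribosomal protein genes were followed through 9 RNA-seq libraries of mouse mammary epithelial cells. They were chosen by name alone: all rows called Rpl or Rps with a number and at most 1 of the letters a, l, x or y (a digit may follow), together with Rplp0, Rplp1, Rplp2 and Rpsa, without rows marked as pseudogenes in their name and without the S6 kinases. The rule found 84 of 23951 gene rows. By name, 33 of these belong to the small subunit, 48 to the large subunit and 3 to the P-stalk, the flexible arm of the large subunit that recruits translation factors. The 33 include Rps4l, which the GENCODE M21 annotation calls a transcribed processed pseudogene. Of the ribosomal protein genes with other names that the rule passes over, 4, among them Fau, Rpl36al and Gnb2l1, are summarised at the end. Rps27rt, also outside the rule, is described with Rps27.

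A ribosome holds a single copy of nearly every ribosomal protein beside its ribosomal RNA, and cells keep the messages of these proteins among the most abundant they have. Many of the messages begin with a terminal oligopyrimidine tract, a run of C and T bases at the start of transcription through which growth signalling by mTOR controls their translation. Several ribosomal proteins that are not built into ribosomes bind Mdm2, the ubiquitin ligase that holds p53 low, so the family is linked to p53 as well as to protein synthesis. In the mammary gland, translation capacity serves epithelium that grows and secretes milk protein.

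The cells came from female mice of mixed genetic background that carried a yellow fluorescent protein reporter behind a floxed stop at the Rosa26 locus (R26Y). Adenovirus with Cre recombinase under the keratin 8 promoter (Ad-K8-Cre) was injected into the mammary ducts, and the cells positive for the reporter were sorted 1 month later. Each of 3 genotypes had 3 libraries: R26Y alone (WT), Trp53L/L;R26Y (p53-null) and Trp53L/L;Brca1L/L;R26Y (p53/Brca1-null), so all groups had the virus, Cre and the reporter. Recombination therefore depended on the virus reaching a cell and on keratin 8 promoter activity in it. The labels do not say whether the libraries of a group came from separate animals, and p-values therefore reflect only how far these libraries spread, which may be technical.

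Values are FPKM, given for replicates 1, 2 and 3 in that order. These are fragments per length and per library, so levels of different genes can be compared, while the total RNA of a cell was not measured. In bulk samples of this kind, fewer cells of a type and less RNA per cell cannot be told apart. The read depth is unknown. From the steps between low values, relative depth ran from 0.788 in WT replicate 1 to 1.12 in p53/Brca1-null replicate 2. The luminal keratin gene Krt8 lay between 1136 and 4385 FPKM, and the 8 luminal markers held 0.947% to 4.16% of summed FPKM. The targeted genes did not check the labels: Trp53 ran from 1.35 to 25.5 FPKM for WT, from 0.858 to 55.7 for p53-null and from 1.88 to 26.5 for p53/Brca1-null, and Brca1 was listed at 0 in 8 of 9 libraries. Reads of a recombined allele outside its deleted part cannot be told apart in values per gene, so groups are named by their labels, and each direction given below is one between libraries so labelled.

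RefSeq (GRCm38.p6) gave the sequence around 75 start sites of 63 of the 84 genes. A tract was counted where an unbroken run of at least 8 C or T bases, on the strand that reads like the RNA, began within 20 bases of the annotated start. This rule was chosen after the sequences were seen. A tract was present at 32 of the 75 start sites, 42.7%, against 17.2% of the 32851 start sites in the whole table, and 31 of the 63 genes had one at 1 start site or more. The windows below run from 25 bases before the start and hold 40 bases, with the tract in capitals. They are examples picked after the tracts were seen: Rpl18, Rps26, Rps10, Rplp2 and Rps6 as members with a tract, and Rpl41 and Rps28 as members in which the rule found none. The values of all 7 are given below.
Rpl18, chr7:45718046-45718085, plus strand: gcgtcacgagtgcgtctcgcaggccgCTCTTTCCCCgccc
Rps26, chr10:128626492-128626531, minus strand: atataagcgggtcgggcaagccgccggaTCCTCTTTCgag
Rps10, chr17:27635230-27635269, minus strand: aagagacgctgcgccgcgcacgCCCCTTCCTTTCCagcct
Rplp2, chr7:141447626-141447665, plus strand: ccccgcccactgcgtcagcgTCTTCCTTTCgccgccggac
Rps6, chr4:86857353-86857392, minus strand: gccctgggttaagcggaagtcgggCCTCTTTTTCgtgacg
Rpl41, chr10:128549154-128549193, minus strand: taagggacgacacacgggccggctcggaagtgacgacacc
Rps28, chr17:33824548-33824587, minus strand: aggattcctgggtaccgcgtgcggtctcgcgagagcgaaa
The tracts of Rpl18, Rplp2 and Rps6 were each 10 bases long, that of Rps26 was 9 and that of Rps10 was 13. The median level over the 9 libraries was 611 FPKM for the 31 genes with a tract and 497 FPKM for the 32 genes without one. A missing match says only that these letters were not found in this window.

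The family was among the most abundant in the cells. The median of the members' mean levels was 586 FPKM, against 0.326 FPKM for all gene rows, and 25 to 41 of the 100 highest rows of a library were members. Of the 84 genes, 17 had a mean of 1000 FPKM or more, 72 a mean of 100 or more, and 5 a mean under 10. The median of these means was 685 FPKM for the small subunit and 459.9 for the large subunit. None of the 72 abundant members was listed at 0 in any library, whereas 18 of 503 other genes with a mean of 100 or more (3.58%) were.

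On their own rows the 6 highest members all belonged to the large subunit. Summed with its near-identical row described below, Rps27 of the small subunit had a mean of 2087 FPKM, above the 1951 FPKM of Rpl13. Rpl35, a protein at the exit of the peptide tunnel, had the highest mean, with 3066, 2847 and 4439 FPKM (WT), 3733, 2022 and 2541 FPKM (p53-null) and 3999, 3236 and 2877 FPKM (p53/Brca1-null). Rpl38, known for its part in the translation of Hox messages, had 2569, 2823 and 3315 FPKM (WT), 3137, 1656 and 2144 FPKM (p53-null) and 4151, 2609 and 2850.1 FPKM (p53/Brca1-null). Rpl41, the smallest ribosomal protein, had 2159, 2713 and 3271 FPKM (WT), 2541, 1564 and 1834 FPKM (p53-null) and 3963, 2336 and 1774 FPKM (p53/Brca1-null). For these 3 genes p53-null replicate 2 was the lowest library and the ranges of all genotypes overlapped. Rpl13 had 1777, 1839.8 and 2513 FPKM (WT), 1924, 1702 and 1655 FPKM (p53-null) and 2202, 2027 and 1923 FPKM (p53/Brca1-null). Rpl36 had 1314, 2287 and 2511 FPKM (WT), 1785, 1386 and 1762 FPKM (p53-null) and 2149.5, 1625 and 1537 FPKM (p53/Brca1-null). Rpl32 had 1486, 1692 and 2040.2 FPKM (WT), 1939.8, 1109 and 1582 FPKM (p53-null) and 1856, 1612 and 1757 FPKM (p53/Brca1-null). In these genes too the genotypes overlapped, and the lowest value of Rpl36 was in WT replicate 1.

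**Figure D1:**
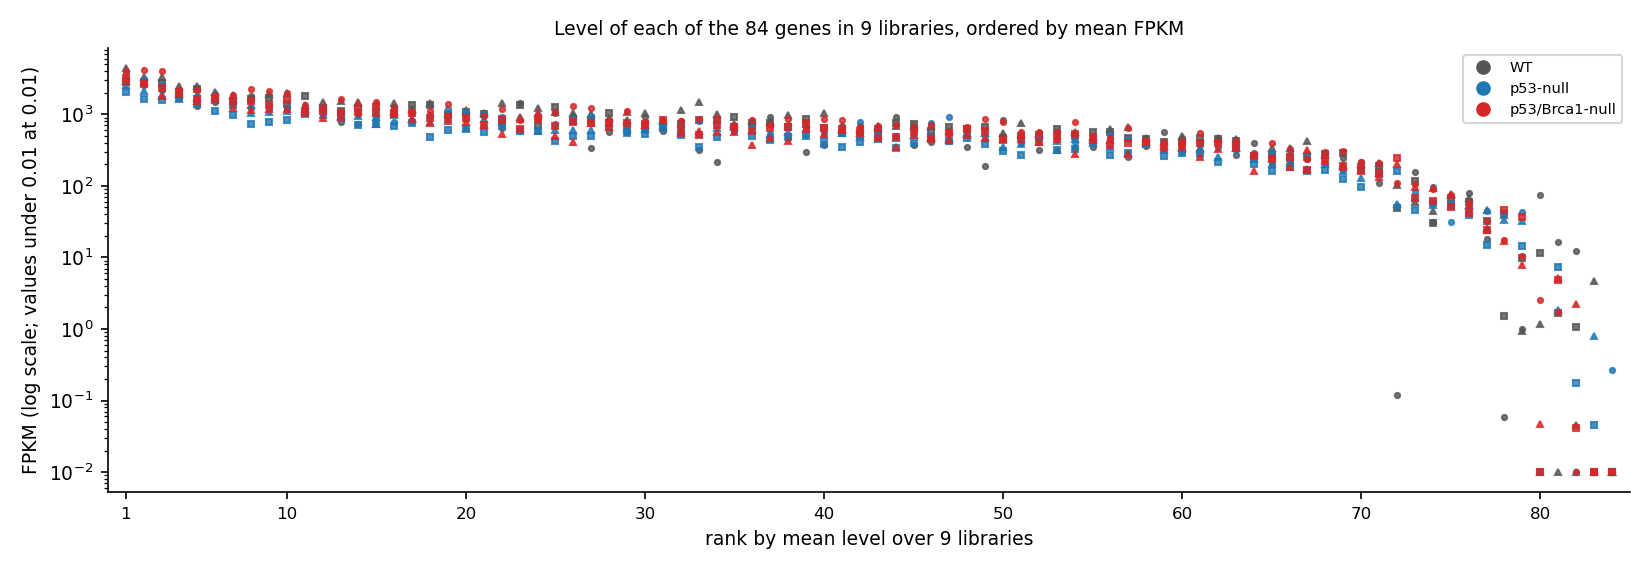
FPKM on a log scale of the 84 genes, ordered by the rank of their mean level along the horizontal axis (1 is the highest), in 9 libraries; grey is WT, blue p53-null and red p53/Brca1-null, with circles, squares and triangles for replicates 1, 2 and 3. By mean level 72 of the 84 genes lie at 100 FPKM or more, and the 5 with a mean under 10 include the 4 that are listed at 0 in some library.

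At the other end stood tissue-restricted paralogs and genes with a near-identical copy in the table. Rpl39l, a paralog known from testis, was listed above 0 in 1 library, p53-null replicate 1, at 0.271 FPKM. Rpl3l, known from striated muscle, was above 0 in 3 libraries, WT replicate 3 at 4.63 FPKM and p53-null replicates 2 and 3 at 0.0461 and 0.807. Rpl10l, an intronless paralog known from testis, had 12.1, 1.05 and 0.0453 FPKM (WT), 0, 0.176 and 0 FPKM (p53-null) and 0, 0.041 and 2.26 FPKM (p53/Brca1-null). Rpl39l and Rpl3l did not reach 1 FPKM in 3 libraries and were not tested, which leaves 82 members. Rps4l, a paralog of Rps4x that the GENCODE M21 annotation calls a transcribed processed pseudogene, had 73.6, 11.4 and 1.16 FPKM (WT), 0, 0 and 0 FPKM (p53-null) and 2.54, 0 and 0.0472 FPKM (p53/Brca1-null). WT replicate 1 carried most of the Rps4l signal. Rpl26 and Rpl30, the remaining 2 of the 6 lowest, are described with their copies below.

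Members with a mean of 100 FPKM or more varied less between libraries than other genes above the same limit. Above it, members and other genes were not matched for level. The median SD of log2(FPKM + 1) over the 9 libraries was 0.36 for the 72 abundant members and 0.64 for the 503 other abundant genes. Members also moved together, with a median Pearson correlation of 0.53 over the 9 libraries for 2556 pairs, of which 91.3% were above 0, against a median of 0.024 and 52.1% among the other abundant genes. All pairs share the same libraries and their scaling, so this is a description. The order of the members was kept between libraries, with Spearman's rho across the members from 0.856 to 0.979 over 36 pairs of libraries.

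The share of summed FPKM held by the family differed more between replicates of the null genotypes than between those of WT. It came to 15.3%, 16.8% and 18.6% for WT, to 15.6%, 11.3% and 12.7% for p53-null and to 18.4%, 13.7% and 12.0% for p53/Brca1-null. The group means were 16.9% ± 1.63 (SD, n = 3), 13.2% ± 2.17 (SD, n = 3) and 14.7% ± 3.29 (SD, n = 3). The p53-null range overlapped WT through p53-null replicate 1 alone, and p53/Brca1-null replicate 1 lay inside the WT range while the other replicates of that genotype lay below it. Single libraries were often the extreme ones: of the 72 abundant members, 38 were lowest in p53-null replicate 2 and 21 in WT replicate 1, while 29 were highest in WT replicate 3 and 22 in p53/Brca1-null replicate 1. The ratio of summed large to small subunit FPKM was 1.39 to 1.42 in WT, 1.39 to 1.53 in p53-null and 1.34 to 1.42 in p53/Brca1-null libraries, and these ranges overlapped.

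Other measures also differed between the libraries. Genes at 1 FPKM or more numbered 4839 to 7320 for WT, 6286, 9146 and 9767 for p53-null and 7332 to 8213 for p53/Brca1-null, so the p53-null libraries with the lowest shares detected the most genes. The 8 milk protein markers held 0.0806% to 0.249% of summed FPKM in WT, 0.0424% to 0.524% in p53-null and, for p53/Brca1-null, 0.201%, 2.02% and 4.15%, where the share of the ribosomal protein genes was lowest at the highest milk value. Wap, a milk marker, was listed at 0 in 4 libraries. The 14 immune markers held 0.718% to 2.05% in WT, 0.782% to 1.66% in p53-null and 2.24% to 3.50% in p53/Brca1-null libraries, with the B cell marker Cd79a listed at 0 in 5 libraries. The 10 handling stress markers held 0.602% to 0.793% in WT, 0.336% to 0.747% in p53-null and 0.363% to 0.417% in p53/Brca1-null libraries, so WT and p53/Brca1-null did not overlap. The 8 basal markers held at most 0.159% in WT, 0.0924% to 0.132% in p53/Brca1-null and, for p53-null, 0.399%, 0.0868% and 0.328%. The luminal markers held 0.947%, 4.16% and 2.42% in the p53-null libraries, so the replicate with the highest luminal value had the lowest share of ribosomal protein genes, and the reverse. Markers of fibroblasts, endothelial cells and red blood cells held at most 0.111%, 0.115% and 0.227% in any library. The adipocyte markers held up to 1.40%, in p53-null replicate 1, where Fabp4 alone had 5145 of their 5301 FPKM. Adipoq was listed at 0 in 8 libraries, and Plin1 and Lep in all 9. The part of detected genes and of these marker signals in the results on ribosomal protein genes was not tested, apart from the fit with the number of detected genes given below.

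**Figure D2:**
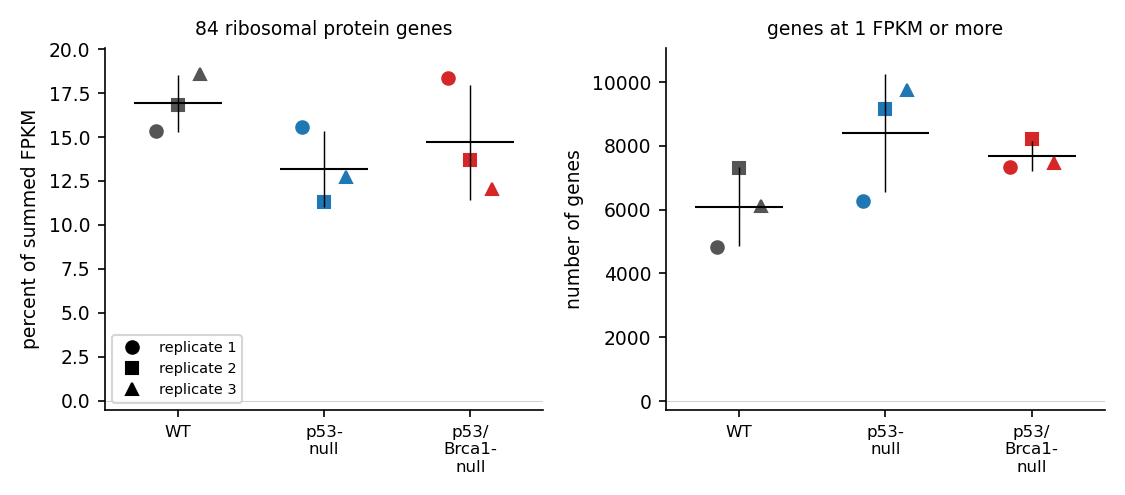
Left, percent of summed FPKM in the 84 ribosomal protein genes; right, number of genes at 1 FPKM or more; points are libraries (circle, square and triangle for replicates 1, 2 and 3), horizontal bars group means and vertical lines the SD over 3 libraries. The lowest share, 11.3%, is that of p53-null replicate 2, which detected 9146 genes.

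The first question concerned p53 loss by itself, as p53-null against WT. Ribosomal protein genes tended to lower values in the libraries labelled p53-null, but no member passed: limma on log2(FPKM + 1), adjusted over 9503 genes, called 0 of 82 members (smallest adjusted p = 0.177) and 1 gene in all, 0.0105%. The log2 difference was below 0 for 70 of 82 members (85.4%), against 29.8% of all genes tested and 45.1% of 501 other abundant genes. Its median was -0.34 for the members, 0.58 for all genes and 0.06 for the other abundant genes. The groups did not overlap, with all p53-null libraries lower, for 23 members, against 2.16% of all genes and 8.98% of the other abundant genes. They did not overlap in the other direction for 2 members, Rpl30 and Rpl34, against 14.1% of all genes. At an unadjusted p under 0.05 stood 10 members lower (background 0.989%) and 2 higher (background 10.8%).

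Both subunits had similar medians, -0.32 for 33 small subunit, -0.35 for 46 large subunit and -0.51 for 3 P-stalk genes on the log2 scale. Genes with and without a tract at the start also had like medians, -0.37 for 31 genes and -0.33 for 30 genes. The median of all genes depended on the scaling, at 0.58 here, -0.04 with quantile normalization and 0.01 in a fit that holds the number of detected genes as a term. The members' median was below 0 under each of the 21 other settings, from -0.47 to -0.20. Relative to all genes it was -0.91 here, -0.17 with quantile normalization and -0.25 with that term. The 10 members with lower values at an unadjusted p under 0.05 became 2 with that term, 1 with neither trend nor robust moderation in limma, 6 with quantile normalization, 3 without p53-null replicate 2 and 18 without WT replicate 1 or without p53-null replicate 1.

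Among small subunit genes, Rps26, which lines the channel through which the message leaves, had 1055, 1247 and 1062 FPKM (WT), 722, 423 and 599.9 FPKM (p53-null) and 1088, 679.6 and 495 FPKM (p53/Brca1-null). All p53-null values lay below all WT values, with a log2 difference of -0.98 ± 0.32 (SE) and a limma adjusted p of 0.239. Rps28, a neighbour of Rps26 in the ribosome, had 987, 1369.6 and 1430.5 FPKM (WT), 957, 482 and 790.4 FPKM (p53-null) and 1111, 902 and 752 FPKM (p53/Brca1-null). The groups did not overlap, although p53-null replicate 1 came close to WT replicate 1, and the log2 difference was -0.80 ± 0.30 (SE, limma adjusted p = 0.308). Rps10, at the entry of the message channel, had 905, 750.2 and 691 FPKM (WT), 494, 333 and 474 FPKM (p53-null) and 697, 479 and 345 FPKM (p53/Brca1-null), with a log2 difference of -0.86 ± 0.33 (SE, limma adjusted p = 0.321). Again the p53-null libraries lay below all WT libraries. Rps26 and Rps10 are both known from Diamond-Blackfan anaemia, a disorder of ribosomal protein loss. Further small subunit genes with groups that did not overlap included Rps3, Rps9, Rps16, Rps23, Rps27a and Rps4l. Rps4l was listed at 0 in all 3 p53-null libraries (limma adjusted p = 0.202), so no fold is given.

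In the large subunit, Rpl18 had the smallest p of all members. It had 1429, 1327 and 912 FPKM (WT), 576, 592 and 627 FPKM (p53-null) and 830.5, 631 and 849.8 FPKM (p53/Brca1-null). The 3 p53-null libraries were close together and all WT libraries lay above them, with means of 1223 ± 274 FPKM (SD, n = 3) in WT and 598 ± 26.0 (SD, n = 3) in p53-null. The log2 difference was -1.005 ± 0.27 (SE) with a limma adjusted p of 0.177. The other large subunit genes with lower values and no overlap included Rpl6, Rpl10a, Rpl12, Rpl13a, Rpl19, Rpl22, Rpl23, Rpl27a, Rpl28 and Rpl29, with log2 differences from -0.80 to -0.32. Rpl7l1, a paralog of Rpl7, had higher means in both null genotypes, with 0.0592, 1.52 and 38.6 FPKM (WT), 41.7, 42.2 and 33.6 FPKM (p53-null) and 17.7, 45.4 and 17.2 FPKM (p53/Brca1-null). Its WT libraries ran from near 0 to within the p53-null range, so the groups overlapped, and the log2 difference was 3.08 ± 1.14 (SE, limma adjusted p = 0.303).

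**Figure D3:**
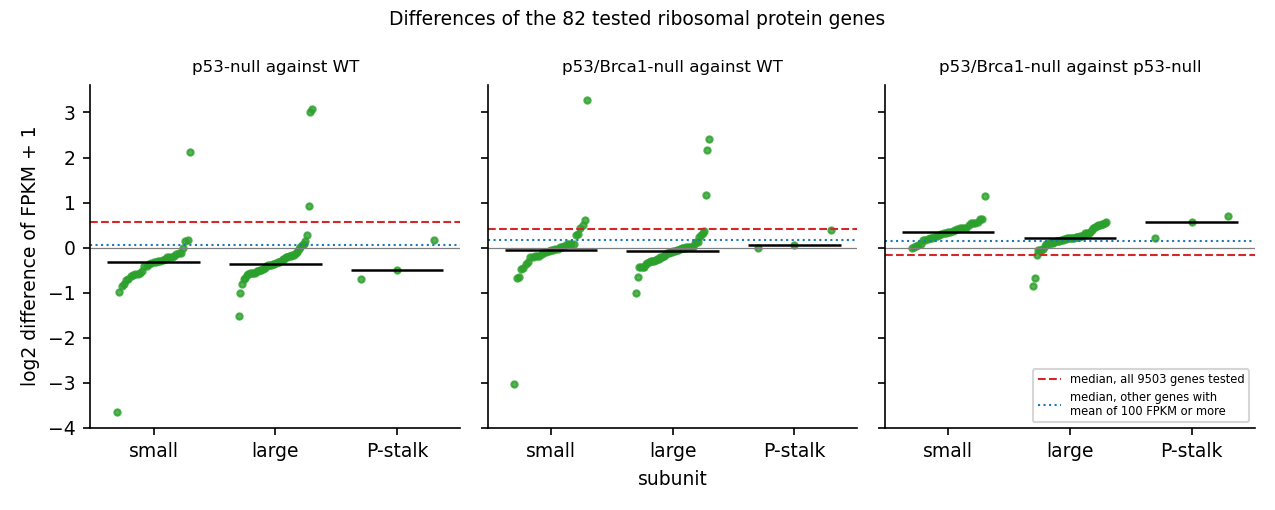
Log2 differences of FPKM + 1 of the 82 tested members in 3 comparisons, by subunit; each point is a gene, black bars are medians of the members, the dashed line is the median of all 9503 genes and the dotted line that of other genes with a mean of 100 FPKM or more. In p53-null against WT the medians lie below 0, at -0.32, -0.35 and -0.51, while the median of all genes is 0.58.

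With both genes targeted, as p53/Brca1-null against WT, the members' median was below 0 by an amount that depended on the scaling. These 3 WT libraries are the same as before, so both comparisons share any deviation of the WT group. limma called 0 of 82 members (smallest adjusted p = 0.284) and 24 genes in all, 0.253%. The log2 difference was below 0 for 52 of 82 members (63.4%), against 36.3% of all genes and 40.9% of the other abundant genes. The median was -0.06 for the members, 0.41 for all genes and 0.17 for the other abundant genes, and the members' sign turned without WT replicate 3 (0.04) or without p53/Brca1-null replicate 3 (0.02). The members' median was farther below 0 in TPM (-0.20, with 68 of 82 members below 0), at an equal sum of the other genes (-0.23, with 68), with quantile normalization (-0.18, with 61) and with library weights (-0.13, with 59). It was -0.21 without WT replicate 1 and -0.25 without p53/Brca1-null replicate 1, while with the term for detected genes it was -0.0046, with 42 of 82 below 0. The groups did not overlap for 7 members with lower values (background 3.83% of all and 6.79% of other abundant genes, so a share near that of abundant genes) and for 3 with higher values (background 12.7% and 13.0%). At an unadjusted p under 0.05 stood 2 members lower (background 2.09%) and 2 higher (background 10.1%). The number lower was 0 with WT replicate 1 or p53/Brca1-null replicate 2 left out, 1 with WT replicate 2 or p53/Brca1-null replicate 3 left out, and 5 without p53/Brca1-null replicate 1. It was 5 in TPM and at an equal sum of the other genes, 4 with quantile normalization, 1 with neither trend nor robust moderation or with a filter at 5 FPKM, and 0 with the detected genes term.

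The 7 with lower values included Rpl9, Rpl18, Rpl23 and Rpl29. Rpl18 again had lower values in every null library, with means of 770.5 ± 121 FPKM (SD, n = 3) in p53/Brca1-null and 1223 ± 274 (SD, n = 3) in WT, a log2 difference of -0.65 ± 0.27 (SE) and a limma adjusted p of 0.357. Rps10 overlapped WT through p53/Brca1-null replicate 1, with a log2 difference of -0.67 ± 0.33 (SE, limma adjusted p = 0.424). Rps4l was at or near 0 in 2 of the 3 p53/Brca1-null libraries and at 2.54 FPKM in the first, which lay inside the WT range (limma adjusted p = 0.295). The 3 genes with higher values were Rplp0, Rps27 and Rpl34. Of these, Rps27 and Rpl34 share sequence with a copy described below.

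The third comparison, p53/Brca1-null against p53-null, asked what Brca1 loss added. It shares the p53-null libraries with the first comparison, so a low library there, such as p53-null replicate 2, counts in both. limma called 0 of 82 members (smallest adjusted p = 0.874) and 0 of 9503 genes (0%), with 274 genes lower and 176 higher at an unadjusted p under 0.05. The log2 difference was below 0 for 8 of 82 members (9.76%), against 57.1% of all genes and 41.5% of the other abundant genes. The median was 0.25 for the members, -0.16 for all genes and 0.14 for the other abundant genes, and the members' median was above 0 under each of the 21 other settings, from 0.04 with quantile normalization to 0.39 without p53-null replicate 1. Groups did not overlap for 14 members with higher values, against 4.87% of all genes and a similar share, 13.4%, of the other abundant genes, and for 0 with lower values (background 8.02% and 7.98%). Overlap was judged in FPKM as listed, and summed FPKM was higher in every p53/Brca1-null than in every p53-null library. How many of the 14 would stay apart under another scaling was not tested. At an unadjusted p under 0.05 stood 2 members higher, Rplp2 and Rps27l (background 1.85%), and 0 lower (background 2.88%). The number higher was 0 in TPM, at an equal sum of the other genes, with quantile normalization, with the detected genes term and with neither trend nor robust moderation. It was also 0 without p53-null replicate 2 or p53/Brca1-null replicate 1, 1 with the replicate block or without p53-null replicate 3, 5 with either WT replicate 1 or the third p53/Brca1-null library left out, 7 without p53-null replicate 1, and 11 with library weights. The 8 members below 0 became 22 in TPM, 18 at an equal sum of the other genes, 34 with quantile normalization, 20 without p53-null replicate 2 and 22 without p53/Brca1-null replicate 1.

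The P-stalk genes had a median log2 difference of 0.57 in this comparison, the small subunit 0.35 and the large subunit 0.21. With quantile normalization these medians were 0.18, 0.09 and -0.0017, so that of the large subunit lost its direction. Rplp2, an acidic protein of the stalk, had 1779, 1644 and 1353 FPKM (WT), 1218, 727 and 1055 FPKM (p53-null) and 2266, 1528 and 1138 FPKM (p53/Brca1-null). p53/Brca1-null replicate 1 was the highest of all libraries and p53/Brca1-null replicate 3 lay inside the p53-null range, so these groups overlapped, with a log2 difference of 0.69 ± 0.28 (SE, limma adjusted p = 0.874). Against WT all p53-null libraries were lower for Rplp2, with a log2 difference of -0.69 ± 0.28 (SE, limma adjusted p = 0.353). Rplp1, its partner, had 1217, 1377 and 1955 FPKM (WT), 1237, 819.8 and 1127 FPKM (p53-null) and 2005, 1582 and 1182 FPKM (p53/Brca1-null). It overlapped in the same way, with a log2 difference of 0.57 ± 0.27 (SE) between the null genotypes (limma adjusted p = 0.999). Rplp0, the base of the stalk, differed from both: it had 583, 660.4 and 678 FPKM (WT), 714, 654 and 809.9 FPKM (p53-null) and 829, 825 and 844 FPKM (p53/Brca1-null). In FPKM as listed, all p53/Brca1-null libraries lay above all others, at the closest 825 against 809.9 in p53-null replicate 3. Summed FPKM was also higher in every p53/Brca1-null library, so the order against p53-null depends on the scaling. The log2 difference of Rplp0 was 0.38 ± 0.26 (SE) against WT (limma adjusted p = 0.568) and 0.20 ± 0.26 (SE) against p53-null (limma adjusted p = 0.999).

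Rps20, a protein of the small subunit head, had 1378, 1080.3 and 742 FPKM (WT), 915, 728 and 915 FPKM (p53-null) and 1463, 1261 and 1051 FPKM (p53/Brca1-null). In FPKM as listed, each p53/Brca1-null library lay above each p53-null library, with a log2 difference of 0.56 ± 0.28 (SE, limma adjusted p = 0.999), whereas WT overlapped both. Rps29, a small zinc-binding protein of the head, had 1176, 1686 and 1909.6 FPKM (WT), 1329, 786 and 1064 FPKM (p53-null) and 2137, 1337 and 1192 FPKM (p53/Brca1-null), with overlap between all genotypes and a log2 difference of 0.54 ± 0.29 (SE) between the null genotypes (limma adjusted p = 0.999). For Rpl38, shown above, that difference was 0.49 ± 0.24 (SE, limma adjusted p = 0.999), and the groups overlapped.

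**Figure D4:**
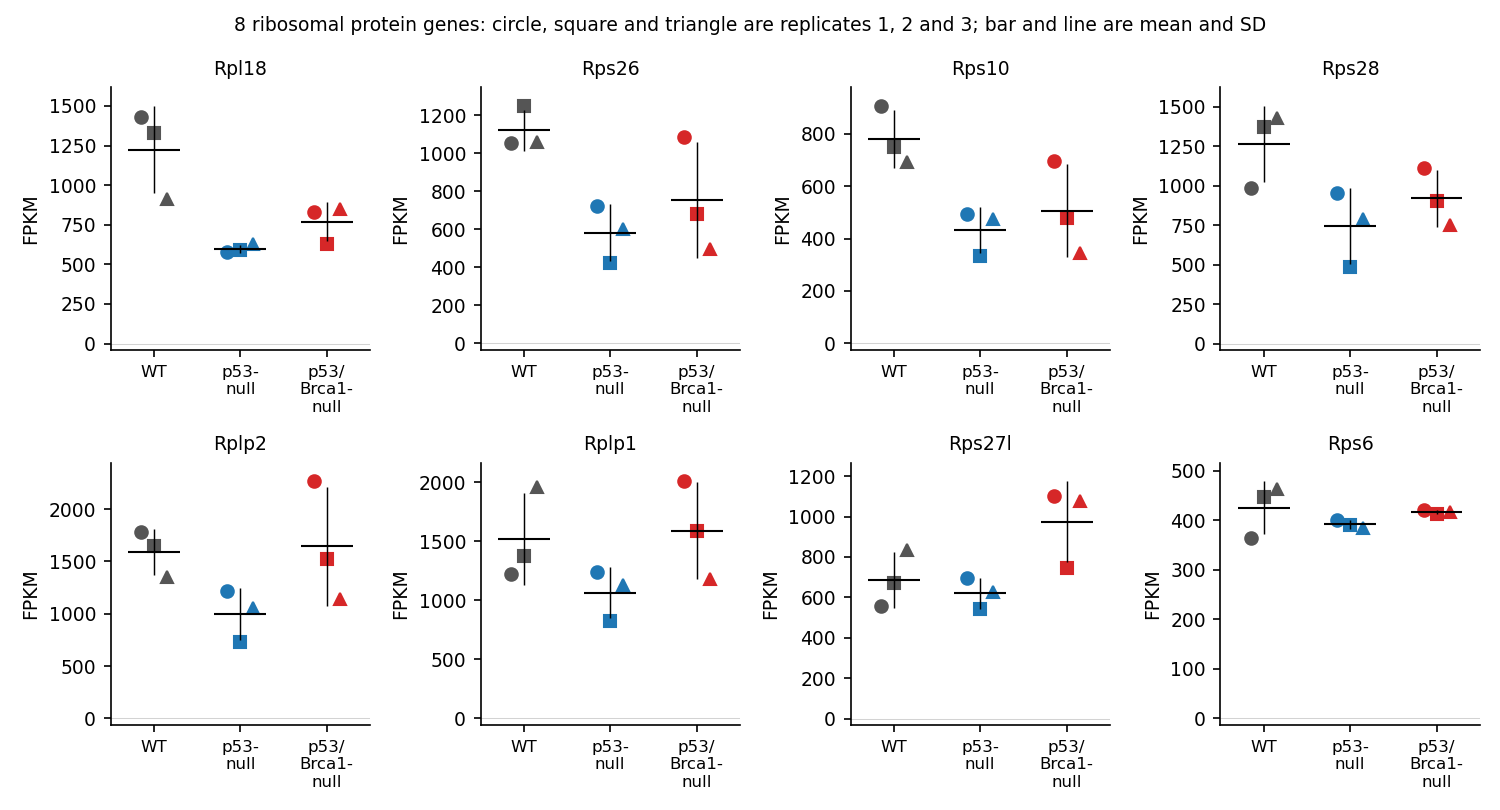
FPKM of 8 members; points are libraries, horizontal bars group means and vertical lines the SD over 3 libraries. Rpl18, Rps26, Rps10 and Rps28 have all p53-null libraries below WT, Rplp2, Rplp1 and Rps27l have higher means in p53/Brca1-null than in p53-null libraries, and Rps6 lies between 366 and 464 in all 9.

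Rps6, the protein phosphorylated by S6 kinase, had 366, 448 and 464 FPKM (WT), 401, 391 and 384 FPKM (p53-null) and 422, 413 and 416 FPKM (p53/Brca1-null). All of these lay within a narrow band. In FPKM as listed, its p53/Brca1-null libraries all lay above its p53-null libraries, at the closest 413 against 401. The log2 difference was 0.09 ± 0.31 (SE, limma adjusted p = 0.999). Summed FPKM differed more in proportion, with means of 416681 in p53/Brca1-null and 375265 in p53-null, so this order depends on the scaling. Rpsa, which is also known as the laminin receptor, had 334, 498 and 571 FPKM (WT), 414, 331 and 448 FPKM (p53-null) and 772, 525 and 282 FPKM (p53/Brca1-null), and p53/Brca1-null libraries held both its highest and its lowest value.

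Of 8 members listed here as Mdm2 binders, a list that may not be complete, 6 had a log2 difference below 0 in p53-null against WT, with a median of -0.22. Among all 82 tested members it was below 0 for 70 (85.4%), with a median of -0.34. Rpl5 and Rpl11 form with the 5S ribosomal RNA the particle that binds Mdm2. Rpl5 had 269, 427 and 452 FPKM (WT), 321, 339.9 and 343 FPKM (p53-null) and 423, 355 and 333 FPKM (p53/Brca1-null), and Rpl11 had 414, 589 and 679 FPKM (WT), 746, 478 and 469 FPKM (p53-null) and 706, 447 and 476 FPKM (p53/Brca1-null). The genotypes overlapped for both, with log2 differences of -0.16 ± 0.34 (SE) and 0.01 ± 0.33 (SE) in p53-null against WT (limma adjusted p = 0.888 and 0.997). Rpl23 had 467, 453 and 471 FPKM (WT), 349, 213 and 251 FPKM (p53-null) and 414, 402 and 323 FPKM (p53/Brca1-null). The WT values of Rpl23 lay close together and above every null library, with a log2 difference from WT of -0.80 ± 0.34 (SE) in p53-null (adjusted p = 0.364, limma) and -0.30 ± 0.34 (SE) in p53/Brca1-null (adjusted p = 0.744, limma). Rps3, which also has a role in DNA repair, had 289, 283 and 274 FPKM (WT), 199, 169 and 201 FPKM (p53-null) and 293, 236 and 223 FPKM (p53/Brca1-null). Its p53-null libraries lay below all others, with a log2 difference of -0.57 ± 0.36 (SE) from WT (limma adjusted p = 0.543). Rps7 had 573, 630.1 and 314 FPKM (WT), 461, 313 and 430.2 FPKM (p53-null) and 561, 479 and 445 FPKM (p53/Brca1-null), and Rps14 had 729, 1241 and 1494 FPKM (WT), 1022, 712 and 958 FPKM (p53-null) and 1047, 1068 and 1452 FPKM (p53/Brca1-null). WT libraries of these 2 genes spanned nearly the whole range. In FPKM as listed, Rps14 was higher in all p53/Brca1-null than in all p53-null libraries. The other 2 of these 8, Rps27l and Rpl26, are described with their paralog and copy.

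Paralog pairs differed in how far the second gene was expressed. Rps27l, whose human counterpart is known to be induced by p53, had 557, 672 and 832 FPKM (WT), 694, 542 and 625 FPKM (p53-null) and 1102, 744 and 1076 FPKM (p53/Brca1-null). Its values labelled p53-null did not differ from WT beyond the spread (log2 difference -0.14 ± 0.29 (SE), limma adjusted p = 0.886). All its p53/Brca1-null libraries lay above all p53-null libraries in FPKM as listed (log2 difference 0.63 ± 0.29 (SE), limma adjusted p = 0.988). Rpl22, an RNA-binding protein, had 55.7, 68.5 and 77.8 FPKM (WT), 31.0, 55.6 and 51.5 FPKM (p53-null) and 75.6, 50.5 and 73.8 FPKM (p53/Brca1-null). Its paralog Rpl22l1 was higher than Rpl22 in every library, at 235, 254 and 425 FPKM (WT), 282, 162 and 174 FPKM (p53-null) and 240.1, 169 and 320.1 FPKM (p53/Brca1-null), and neither gene passed in any comparison. Rpl3, of the peptidyl transferase centre, had 313, 516 and 410.5 FPKM (WT), 465, 482 and 524 FPKM (p53-null) and 563, 412 and 552 FPKM (p53/Brca1-null). Rpl10, which joins the subunit late in its assembly, had 294, 856 and 733 FPKM (WT), 667, 537 and 492 FPKM (p53-null) and 626, 759 and 623 FPKM (p53/Brca1-null). WT replicate 1 was lowest for both, while their paralogs Rpl3l and Rpl10l stayed at or under 12.1 FPKM in every library. Rpl39, at the tunnel exit, had 318, 831 and 1469 FPKM (WT), 806, 351 and 534 FPKM (p53-null) and 853, 514 and 575 FPKM (p53/Brca1-null), a wide spread within WT, against a single value above 0 for Rpl39l. Rps4x, the X-linked paralog of Rps4l, had 187, 660.0 and 539.7 FPKM (WT), 459, 381 and 548 FPKM (p53-null) and 865, 589 and 461 FPKM (p53/Brca1-null). Its lowest library was WT replicate 1, the library in which Rps4l was highest. Rpl7 had 464, 674 and 962 FPKM (WT), 711, 488 and 557 FPKM (p53-null) and 851, 660.2 and 419 FPKM (p53/Brca1-null), far above its paralog Rpl7l1.

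For some members the table also lists a near-identical row. The sources used here do not give how the authors shared reads between such rows. The longest open reading frames of 83 members were compared with GENCODE M21 transcripts of genes in the table, and 13 members had 1 row or more of at least 95% identity over at least 80% of the frame, 14 rows in all. For Rpl26, Rpl30, Rps27 and Rpl34 the copy carried most of the signal. For Rps15a, at a mean of 29.1 FPKM, 2 copies held 15.6 and 27.5 FPKM. Coordinates here are those of GENCODE M21 (GRCm38), and positions count from 1 at the A of the start codon. Rpl26 (chr11:68901583-68906989, plus strand) and Gm15772 (chr5:3236431-3236868, plus strand, a processed pseudogene) differed at 2 of 438 bases, C177T and T288C. Rpl30 (chr15:34440505-34443640, minus strand) and Gm12191 (chr11:49678710-49679057, minus strand, a processed pseudogene) differed at 1 of 348 bases, G96A. The stretches around C177T and G96A are shown because so few bases tell these rows apart, with the differing base in capitals.
Rpl26, bases 157 to 197: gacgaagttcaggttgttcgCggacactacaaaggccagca
Gm15772, the same bases: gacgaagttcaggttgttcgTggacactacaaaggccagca
Rpl30, bases 76 to 116: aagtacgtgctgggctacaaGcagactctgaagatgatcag
Gm12191, the same bases: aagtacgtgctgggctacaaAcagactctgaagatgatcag
Rps27 (chr3:90212522-90213651, minus strand) and Rps27rt (chr9:114982366-114982739, minus strand, a gene annotated as protein coding) did not differ in any of the 255 bases. Rpl34 and Rpl34-ps1 (chr6:71124610-71124963, plus strand, a processed pseudogene) were 99.4% identical.

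Summing each pair changed what these members showed. Rpl26, at 16.2, 1.66 and 0.00026 FPKM (WT), 1.72, 7.23 and 1.82 FPKM (p53-null) and 1.72, 4.84 and 5.17 FPKM (p53/Brca1-null), had a mean of 4.48 FPKM against 944 for Gm15772. Together the Rpl26 rows gave 1378, 1114 and 1040.0 FPKM (WT), 873, 634 and 801 FPKM (p53-null) and 1021, 875 and 798 FPKM (p53/Brca1-null), with every null library below every WT library. The log2 difference of the Rpl26 sum was -0.62 ± 0.26 (SE) for p53-null against WT (limma adjusted p = 0.367). Rpl30 alone had 1.00, 9.86 and 0.952 FPKM (WT), 43.4, 14.3 and 31.8 FPKM (p53-null) and 10.5, 37.0 and 7.88 FPKM (p53/Brca1-null), a log2 difference of 3.01 ± 1.03 (SE) in p53-null against WT (limma adjusted p = 0.25). With Gm12191 the Rpl30 sum was 626, 465 and 678 FPKM (WT), 428, 225 and 304 FPKM (p53-null) and 448, 405 and 397 FPKM (p53/Brca1-null), and the difference took the other sign, -0.91 ± 0.34 (SE, limma adjusted p = 0.304). In p53/Brca1-null against WT the Rpl30 difference went likewise from 2.17 ± 1.03 (SE) to -0.48 ± 0.34 (SE).

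Rps27, a zinc-finger protein of the small subunit, had 0.121, 49.7 and 104 FPKM (WT), 52.5, 161 and 56.2 FPKM (p53-null) and 109, 243 and 201 FPKM (p53/Brca1-null), and its log2 difference in p53/Brca1-null against WT was 3.27 ± 1.18 (SE, limma adjusted p = 0.284). The sum with Rps27rt was 2072, 2231 and 2860.1 FPKM (WT), 2475, 1373 and 1658 FPKM (p53-null) and 2356, 1635 and 2125 FPKM (p53/Brca1-null), which overlapped between genotypes, with a difference of -0.23 ± 0.25 (SE, limma adjusted p = 0.729). Rpl34, a large subunit protein, had 30.8, 30.2 and 45.1 FPKM (WT), 95.3, 58.2 and 53.8 FPKM (p53-null) and 89.6, 60.5 and 92.0 FPKM (p53/Brca1-null), higher in every null library than in WT. With Rpl34-ps1 the Rpl34 sum was 559, 532 and 932 FPKM (WT), 674, 502 and 745 FPKM (p53-null) and 953, 883 and 875 FPKM (p53/Brca1-null), the null libraries overlapped WT, and all p53/Brca1-null libraries lay above all p53-null libraries. After summing, members with lower values and no overlap numbered 25 in p53-null against WT and 9 in p53/Brca1-null against WT, those with higher values 0 and 1, and 15 were higher in p53/Brca1-null against p53-null. Without summing, the background lower was 2.16% and 3.83% of all genes, and 8.98% and 6.79% of other abundant genes. The background higher was 14.1%, 12.7% and 4.87% of all genes in the 3 comparisons, and 6.79%, 13.0% and 13.4% of other abundant genes. The sum of near-identical rows was chosen after the data were seen, and it left 0 members called.

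**Figure D5:**
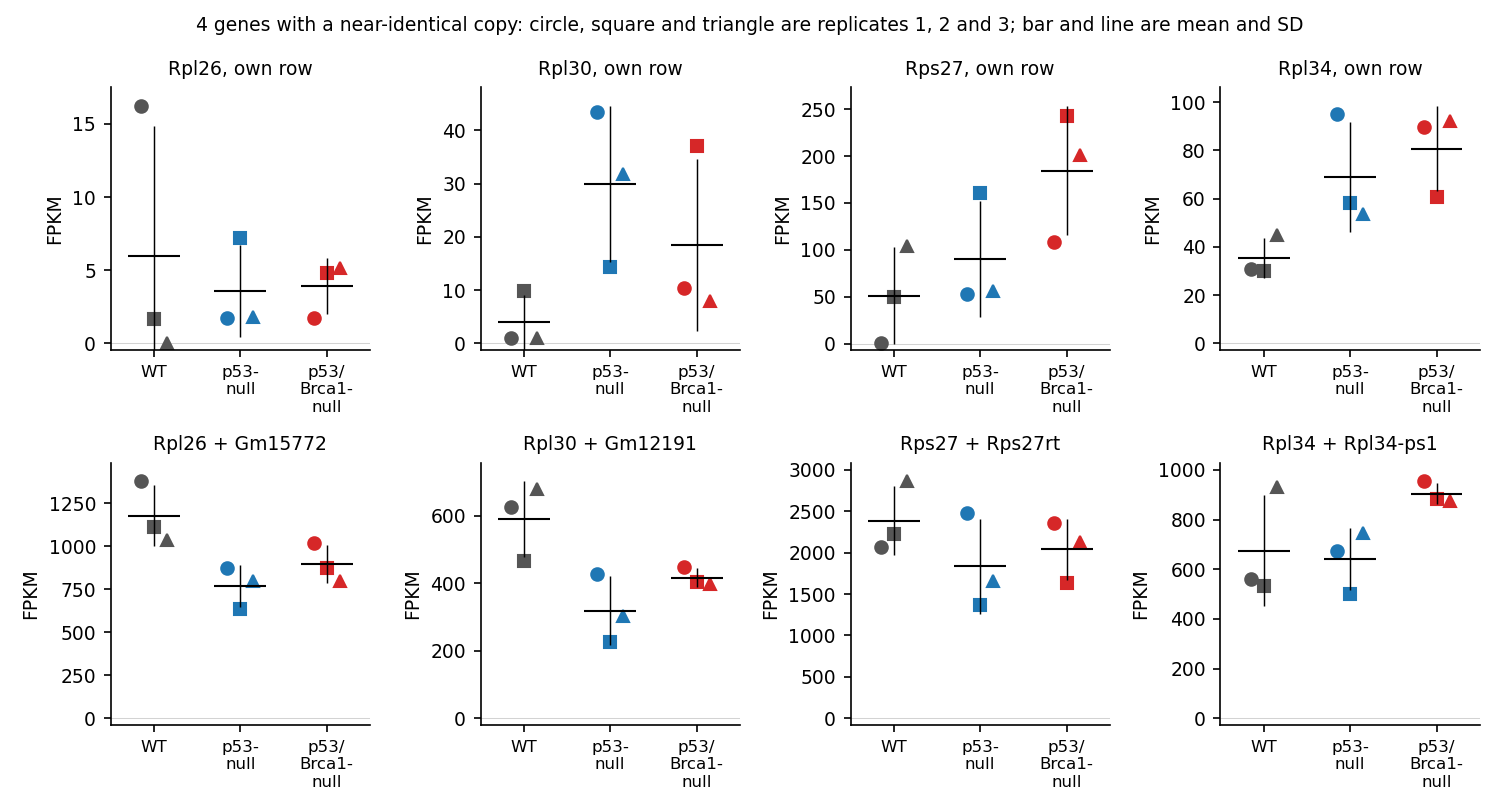
FPKM of Rpl26, Rpl30, Rps27 and Rpl34 on their own rows (top) and summed with their near-identical row (bottom); points are libraries, horizontal bars group means and vertical lines the SD over 3 libraries. For Rpl30 the WT mean is the lowest on the own row and the highest in the sum.

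The rest of the translation apparatus gave the following counts, each beside the background shares above. The 4 listed ribosomal protein genes outside the name rule all had log2 differences below 0 in p53-null against WT, with a median of -0.24. Their medians were 0.04 and 0.26 in the other comparisons. With quantile normalization those last medians were -0.08 and -0.02, both below 0. The 17 genes listed as translation factors included some of other function, and most are known for oligopyrimidine messages of their own. Medians of these 17 were -0.15, 0.03 and 0.23, and 0 passed. The first turned to 0.02 with the term for detected genes. The second turned to -0.04 with quantile normalization, -0.10 in TPM and -0.14 at an equal sum of the other genes. Of 30 ribosome biogenesis genes, which build the particles in the nucleolus, 29 were tested. Their medians were 1.11 in p53-null against WT, 0.95 in p53/Brca1-null against WT and -0.55 between the null genotypes, on the opposite side of 0 from the members in each comparison. With quantile normalization these were 0.74, 0.53 and -0.50, and each kept its side of 0 under 4 other scalings. With limma 0 of the 29 passed. At an unadjusted p under 0.05 stood 9, 5 and 0, all with higher values, against a background higher of 10.8%, 10.1% and 1.85% of all genes. Without a change of scaling, the median of all genes lay on the same side of 0 as that of the biogenesis genes in each comparison. With quantile normalization the median of all genes was -0.04, -0.04 and 0.0009, on the opposite side each time. With the term for detected genes it was on the opposite side between the null genotypes, at 0.01. The 75 tested mitochondrial ribosomal protein genes had medians of 0.66, 1.38 and 0.35, with 1, 1 and 0 called. The first turned to -0.06 with the term for detected genes. The members' medians lay below these 3 values, a difference between families that was not tested.

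The genes outside the family whose levels over the 9 libraries most resembled the members' mean log2 value, among genes with a mean of 100 FPKM or more, were Cox7c (Pearson r = 0.93 over 9 libraries), Uqcrb (0.90), Uqcrq (0.84), Hspe1 (0.79), Cox5a (0.79) and Mir682 (0.78). All share the libraries and their scaling with the members. Cox7c, Uqcrb, Uqcrq and Cox5a encode subunits of the mitochondrial respiratory chain, and Hspe1 a mitochondrial chaperone. Cox7c had its 3 highest values in WT replicates 2 and 3 and in p53/Brca1-null replicate 1, at 496, 511 and 493 FPKM, and its lowest in p53-null replicate 2, at 241 FPKM. These 4 libraries also held the 3 highest and the lowest share of the ribosomal protein genes.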

How the data were processed

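The 9 libraries were made with the SMARTer v4 low-input kit from RNA extracted with Trizol, per the labels' protocols. The authors deposited 1 table of 24043 rows with 9 columns of FPKM, a unit its header does not name; it was inferred from values that step with gene length. The genome build was mm9, per the submitters' processing notes. The aligner was not given in the sources used here, and neither were the quantifier and the gene models. The 92 spike-in rows were left out.

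The 9503 genes that reached 1 FPKM in 3 libraries or more were fitted with limma 3.58.1 in R 4.3.3 on log2(FPKM + 1), with 1 coefficient per genotype over all 9 libraries (6 residual degrees of freedom), a trend and robust moderation. Differences on this scale understate changes of low genes. Benjamini-Hochberg adjustment ran over all genes tested, with a call at 0.05. The fitting code was run on simulated data with known differences and independent noise for each gene. That checks the code only, and does not show which differences could be called in these libraries. Background percentages are shares of the genes tested that meet the same criterion. Groups do not overlap where all 3 libraries of one lie above all 3 of the other in FPKM as listed. Overlap was not counted again under other scalings.

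The members and all gene lists were chosen with earlier results of these data known. Genes named with values were the 6 members with the smallest p per comparison (no comparison had 4 called), the 6 highest and 6 lowest by mean level, Mdm2 binders, paralog pairs, the P-stalk, Rpsa and Rps6; Rpl34 (for its copy), Rps15a and Cox7c were chosen after their values were seen. A few genes are not reported here by name. Identity between rows was found with BLAST 2.17.0 on GENCODE M21 transcripts, and sequences at start sites came from RefSeq. Neither is of the build the authors used, so no measured value was placed by coordinates. Same-numbered libraries did not deviate together (correlations from -0.083 to 0.056 over 9 pairs), so the numbers were not taken as pairs. Alternatives covered scaling, filter, pseudocount, moderation, library weights, a replicate block, the number of detected genes and each library left out; the sum of near-identical rows was added after the data were seen.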

Additional observations from a re-analysis of the deposited data

How the results depend on the processing

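No member was called in any of the 3 comparisons under any of the 21 other settings, so the count of 0 called members did not move. Counts over all genes moved more. In p53-null against WT the 1 gene called became 0 with only the 6 libraries compared or with a term for detected genes, 2 with library weights, 17 with a pseudocount of 0.1, 42 without trend and robust moderation, and 0 to 8 with a library left out. In p53/Brca1-null against WT the 24 genes became 14 with the replicate block, 7 with only the 6 libraries compared, 78 without trend and robust moderation, 45 with quantile normalization, 56 with a pseudocount of 0.1, 4 with the detected genes term, and 3 to 73 with a library left out. In p53/Brca1-null against p53-null 0 genes called turned into 19 with library weights and 1 with only the 6 libraries compared. The replicate block changed no other call. Relative to all genes, the members' median log2 difference in p53-null against WT moved from -0.91 to -0.17 with quantile normalization and to -0.25 with the detected genes term. Summing near-identical rows, chosen after the data were seen, reversed Rpl30 in p53-null against WT (-0.91) and in p53/Brca1-null against WT (-0.48), and Rps27 in p53/Brca1-null against WT (-0.23). Without the 20 highest other genes the members' share of summed FPKM was 20.6% (WT), 15.6% (p53-null) and 18.0% (p53/Brca1-null). The cause of these shifts was not tested.

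The read depth behind the values is unknown, so no counting error can be given. The values are relative within a library: a lower share of ribosomal protein RNA and a higher share of other RNA cannot be told apart. With 3 libraries a group and a spread that 1 library can set, differences of the size seen here did not pass, which does not show that the genotypes are alike. Values of members with a near-identical row depend on how reads were shared, which the sources used here do not give.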
